A study of Macaca mulatta with 4 samples.

Results

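The 10 genes described here encode enzymes that make, modify or break down the lipids of myelin, the membrane that oligodendrocytes wrap around axons. They are UGT8, GAL3ST1, FA2H, ELOVL1, ELOVL7, CERS2, SPTLC2, SGMS1, GALC and ASPA, and they were matched by symbol in a deposited table of 33618 genes. The group was chosen by function and with earlier results in view: ELOVL1 and CERS2 had been noted for their values in the comparison of these same libraries. Values of the 10 genes in the sevoflurane comparison are therefore given as a description, without p-values. All 10 passed the filter on low counts, as did 17693 genes in all.

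RNA-seq was done on brain samples of infant rhesus macaques (Macaca mulatta), labelled wild type, with 2 control and 2 sevoflurane libraries. Sevoflurane, an inhaled general anaesthetic, was given at 2.5 to 3% for 4 hours, first at about postnatal day 7 and again 14 and 28 days later, and prefrontal cortex was collected straight after the third exposure. Control animals are labelled with no agent, and their handling, age and time of sampling are not described in the sources used here. No label ties the libraries of a group to different animals, so the spread within a group may be technical.

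Galactosylceramide and its sulfated form, sulfatide, are the characteristic glycolipids of myelin. Their synthesis starts with serine palmitoyltransferase, which makes the sphingoid backbone, and goes on with ceramide synthases, which attach a fatty acid. In myelin that fatty acid is often very long and carries a hydroxyl group, and ceramide then receives galactose in the endoplasmic reticulum or is diverted to sphingomyelin in the Golgi. Oligodendrocytes also split acetyl-aspartate, which neurons make, and the acetate released can be used for lipid synthesis.

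The control libraries held 10059944 (replicate 2) and 7793757 (replicate 3) counts, and the sevoflurane libraries 11703857 and 11706115. Control replicate 3, the shallowest library, stood farthest from the other libraries, with Spearman correlations of 0.9686 to 0.9759 against 0.9842 for the sevoflurane pair. By this measure control replicate 2 was nearer to sevoflurane replicates 2 and 3 (0.9773 and 0.9795) than to control replicate 3 (0.9759). The 10 genes had between 28 and 946 counts in a library. Levels below are CPM (counts scaled to a common library size with TMM factors, the trimmed mean of M values), and fold changes are log2 values of sevoflurane against control from edgeR with their standard error (SE). Levels were not adjusted for transcript length, so they are compared between libraries and not between genes.

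Galactolipid synthesis and the very long fatty acid chain were covered by 6 of the genes. After sevoflurane, 5 of these 6 were at 27 to 49% of their control level, and ELOVL7 was at 108.5%. GALC, which breaks galactosylceramide down, was at 91.7%. Of the remaining genes, SGMS1 was at 75%, SPTLC2 at 65% and ASPA at 48%. The summed level of the 10 genes was 423 and 487 CPM in the control libraries and 223 and 247 CPM in the sevoflurane libraries. Genes were called by edgeR's quasi-likelihood test where the p adjusted by Benjamini-Hochberg over the 17693 tested genes was under 0.05. On that rule 4 of the 10 were called lower (FA2H, UGT8, ELOVL1 and CERS2), 0 higher and 6 were not called. Of all tested genes 0.537% were called lower and 0.0622% higher. Because this contrast helped to choose the group, its count is not evidence about it. The median log2 fold change was -1.05 over the 10 genes and -0.00 over all tested genes.

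**Figure D1:**
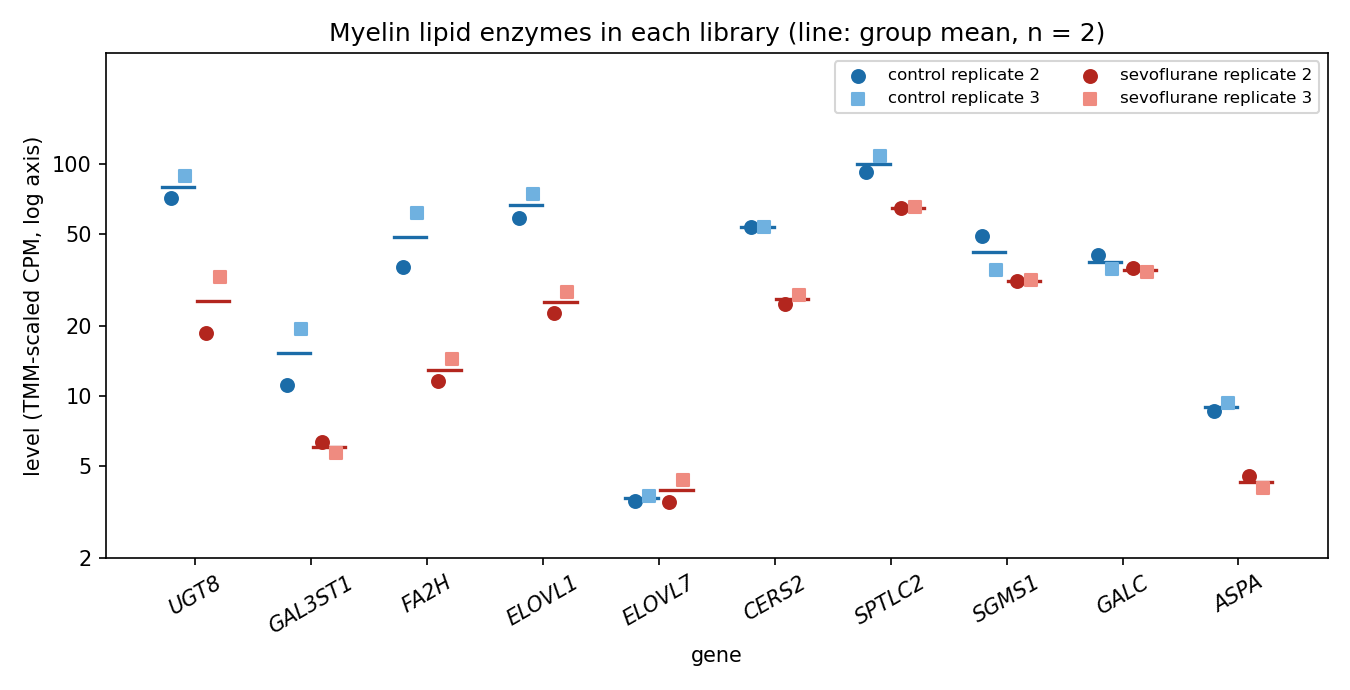
Level of each enzyme gene in each library (TMM-scaled CPM, log axis), with a line at the mean of each group (n = 2). UGT8, FA2H, ELOVL1, CERS2, GAL3ST1 and ASPA have clear space between the groups, whereas ELOVL7 and GALC overlap.

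UGT8 encodes the galactosyltransferase that turns ceramide into galactosylceramide, the committed step of this pathway. Its level was 71.3 and 88.2 CPM in control replicates 2 and 3, and 18.7 and 32.5 CPM in sevoflurane replicates 2 and 3, the order used for each gene below. Both sevoflurane libraries lay below both controls, and sevoflurane replicate 2 was the lowest of the 4. The mean was 79.8 ± 11.9 CPM in controls and 25.6 ± 9.75 CPM after sevoflurane (SD, n = 2 per group). This is a log2 difference of -1.64 (SE 0.25). Without control replicate 3 UGT8 was not called, at a log2 fold change of -1.48.

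FA2H, the fatty acid hydroxylase that supplies hydroxylated chains for myelin galactolipids, had the lowest fold change of the group. It had 35.8 and 61.3 CPM in control replicates 2 and 3 and 11.5 and 14.3 CPM in sevoflurane replicates 2 and 3. The groups did not overlap, although the controls themselves differed, with control replicate 3 well above control replicate 2. The mean of 48.5 ± 18.0 CPM in controls compared with 12.9 ± 1.98 CPM after sevoflurane (SD, n = 2 per group), or -1.90 on the log2 scale (SE 0.27). Leaving out control replicate 3 gave -1.47 and leaving out control replicate 2 gave -2.24.

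GAL3ST1 encodes the sulfotransferase that converts galactosylceramide to sulfatide. Its level was 11.1 and 19.4 CPM in control replicates 2 and 3, and 6.32 and 5.69 CPM in sevoflurane replicates 2 and 3. The sevoflurane libraries were close to each other and below both controls, which were far apart. GAL3ST1 had a log2 fold change of -1.33 (SE 0.32) and was not called. It had -1.69 without control replicate 2 and -0.89 without control replicate 3.

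Among the enzymes of the very long acyl chain, ELOVL1 elongates saturated and monounsaturated fatty acids to very long lengths. It had 58.6 and 74.0 CPM in control replicates 2 and 3 and 22.8 and 28.1 CPM in sevoflurane replicates 2 and 3. Every sevoflurane value was under every control value, with a wide space between the groups. The log2 fold change was -1.38 (SE 0.19), that is from 66.3 ± 10.9 to 25.5 ± 3.73 CPM (SD, n = 2 per group). In the 4 fits that left out a library, ELOVL1 had log2 fold changes from -1.54 to -1.20.

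CERS2 encodes the ceramide synthase that attaches very long acyl chains. Its level was 53.2 and 53.3 CPM in control replicates 2 and 3 and 24.9 and 27.3 CPM in sevoflurane replicates 2 and 3. The controls were nearly equal, and the groups were well apart. CERS2 had a log2 fold change of -1.03 (SE 0.16). Without sevoflurane replicate 2 CERS2 had -0.96 and was not called.

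ELOVL7, another elongase of saturated chains, did not share this pattern. It had 3.51 and 3.71 CPM in control replicates 2 and 3 and 3.50 and 4.33 CPM in sevoflurane replicates 2 and 3, from 28 to 51 counts. The groups overlapped. ELOVL7 had a log2 fold change of 0.12 (SE 0.40), or -0.04 without sevoflurane replicate 3, so no direction can be given at this depth. In the same libraries the ratio of ELOVL1 to ELOVL7 reads was 16.7 and 19.9 in controls and 6.51 and 6.49 after sevoflurane.

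SPTLC2 encodes a catalytic subunit of serine palmitoyltransferase, at the entry to ceramide synthesis. Its level was 92.3 and 108 CPM in control replicates 2 and 3 and 64.2 and 65.3 CPM in sevoflurane replicates 2 and 3. The groups did not overlap, and the sevoflurane libraries were nearly equal. The log2 fold change was -0.62 (SE 0.14), and SPTLC2 was not called. Without control replicate 2 it had -0.73. SGMS1, the Golgi sphingomyelin synthase, had 48.6 and 34.9 CPM in control replicates 2 and 3 and 31.1 and 31.6 CPM in sevoflurane replicates 2 and 3. Control replicate 2 alone stood well above the rest. The log2 fold change of SGMS1 was -0.42 (SE 0.19) and -0.16 without control replicate 2, and it was not called.

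GALC encodes the lysosomal galactosylceramidase that removes galactose from galactosylceramide, the enzyme lacking in Krabbe disease. Its level was 40.4 and 35.3 CPM in control replicates 2 and 3 and 35.4 and 34.1 CPM in sevoflurane replicates 2 and 3. Control replicate 3 and sevoflurane replicate 2 were almost equal, so the groups overlapped. GALC had a log2 fold change of -0.13 (SE 0.17) and was not called. The ratio of UGT8 to GALC reads was 1.77 and 2.50 in the controls, but 0.529 and 0.953 in the sevoflurane libraries. This ratio still carries the lengths of both transcripts, so only its difference between libraries can be read, and it was lower in both sevoflurane libraries.

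ASPA encodes aspartoacylase, which splits acetyl-aspartate in oligodendrocytes and is lacking in Canavan disease. It had 8.59 and 9.28 CPM in control replicates 2 and 3 and 4.53 and 3.99 CPM in sevoflurane replicates 2 and 3. The libraries of a group were close to each other and the groups were apart. The log2 fold change was -1.07 (SE 0.31), and ASPA, measured at 47 to 88 counts in a library, was not called.

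In all, 8 of the 10 genes were lower in both sevoflurane libraries than in both controls, an arrangement found in 20.4% of all tested genes, while 20.8% had the opposite arrangement, which none of the 10 had. By at least 2-fold, 6 of the 10 were lower. CERS2 differed least of these 6, and 2.59% of all tested genes had a lower log2 fold change than CERS2. With no filter on low counts, which raised the genes tested to 25567, edgeR called only FA2H and ELOVL1 of the group. In that fit 57 of the 25567 genes were called lower. DESeq2 called 6 of the 10 lower, adding GAL3ST1 and SPTLC2, where it called 1.24% of all tested genes lower. Limma-voom called the same 4 as edgeR and 0.582% of all tested genes lower. For a single measure per library, 2 against 2 libraries allow no two-sided exact permutation p below 0.333, so none was computed.

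**Figure D2:**
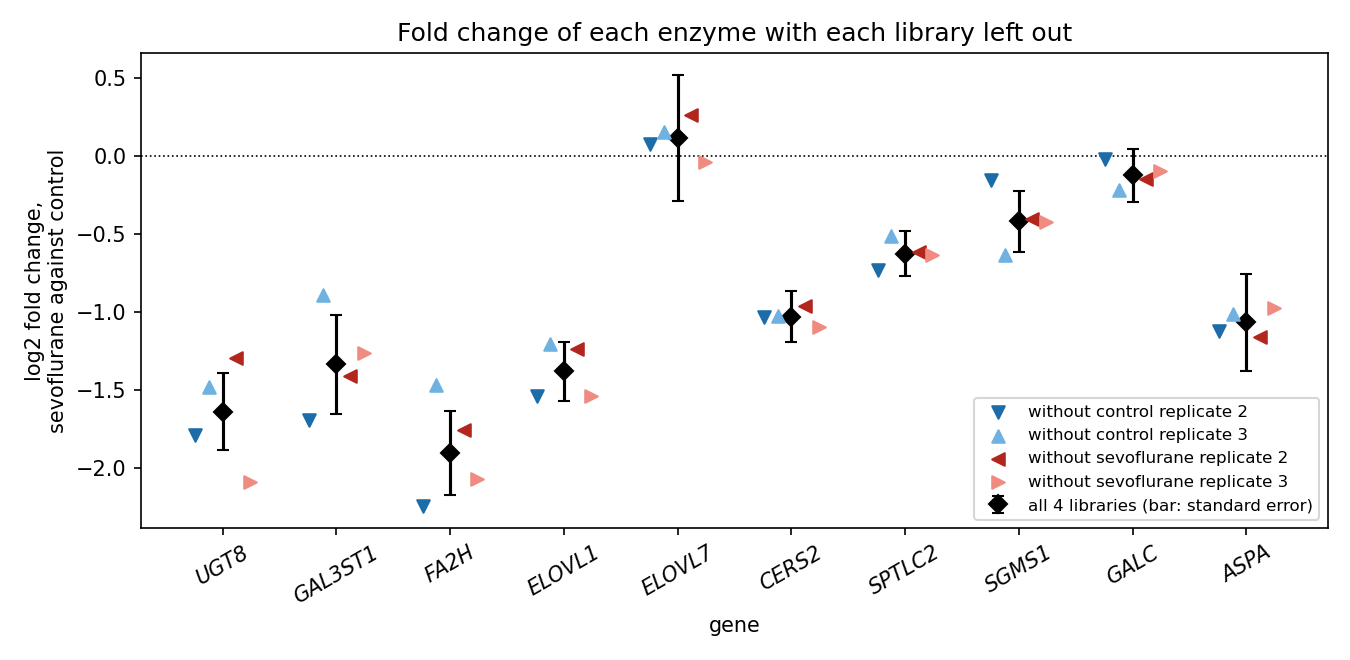
Log2 fold change of each enzyme gene, sevoflurane against control, from all 4 libraries (diamond, bar: SE) and with each library left out (triangles). FA2H ranges from -2.24 to -1.47 and UGT8 from -2.09 to -1.29, whereas CERS2 stays between -1.10 and -0.96 and ELOVL7 crosses 0.

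Markers of mature oligodendrocytes moved in the same direction in these libraries. All 11 tested markers of 12 listed were called lower (TMEM144, at 1 to 8 counts, was not tested), with a median log2 fold change of -1.97, and their summed level was 9337 and 14760 CPM in control replicates 2 and 3 and 2433 and 3628 CPM in sevoflurane replicates 2 and 3. The 10 markers listed for oligodendrocyte precursors summed to 1068 and 1013 CPM in controls and 594 and 671 CPM after sevoflurane. Of these 10, OLIG2 and SOX10 were called lower, both lineage transcription factors that are not confined to precursors. All 10 had a negative log2 fold change, and 8 were lower at an unadjusted p under 0.05 by edgeR, against 5.57% of all tested genes. PDGFRA (-0.14, SE 0.13) and PCDH15 (-0.02, SE 0.19) differed least. The 10 neuron markers summed to 7847 and 9435 CPM in controls and 9438 and 9473 CPM after sevoflurane, with 0 called by edgeR, DESeq2 or limma-voom and 0 at an unadjusted p under 0.05 by edgeR. Without control replicate 3, NEFL (0.50) and SLC17A7 (0.50) of these were called higher. Astrocyte markers summed to 9842 and 8212 CPM in controls and 6014 and 6090 CPM after sevoflurane, with GFAP alone called among 10. The difference in this sum was that of GFAP (5249 and 3877 CPM in controls, 1531 and 1898 CPM after sevoflurane). The other 9 summed to 4593 and 4335 CPM in controls and 4483 and 4192 CPM after sevoflurane. Of these 9, AQP4 (-0.49, SE 0.18) and S100B (-0.76, SE 0.19) were lower at an unadjusted p under 0.05 by edgeR, and 0 were higher. Neither AQP4 nor S100B passed. Meningeal fibroblast markers summed to 242 and 115 CPM in controls and 595 and 216 CPM after sevoflurane, with SLC6A13 called higher among 10. The log2 fold change was negative for 0 of these 10, with a median of 1.06. At an unadjusted p under 0.05 by edgeR 5 of them were higher, against 4.35% of all tested genes. Microglia markers summed to 377 and 340 CPM in controls and 260 and 314 CPM after sevoflurane, with CX3CR1 called lower among 10. At an unadjusted p under 0.05, 2 microglia markers were lower and 2 higher, the latter C1QA (0.66, SE 0.22) and C1QB (0.67, SE 0.25), which did not pass. Endothelial and mural markers summed to 593 and 613 CPM in controls and 633 and 607 CPM after sevoflurane, with 0 of 10 called by edgeR, DESeq2 or limma-voom and 0 at an unadjusted p under 0.05 by edgeR. The part of these cell markers in the enzyme values was not tested. In bulk tissue, fewer oligodendrocytes and less RNA of these enzymes per oligodendrocyte cannot be told apart.

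Set against the geometric mean of the 11 markers (253 and 376 CPM in control replicates 2 and 3, 66.4 and 94.8 CPM in sevoflurane replicates 2 and 3), the enzymes spread over a range. FA2H had ratios of 0.141 and 0.163 in controls and 0.174 and 0.151 after sevoflurane, and the groups overlapped. UGT8 had ratios of 0.282 and 0.235 in controls and 0.282 and 0.343 after sevoflurane, so that control replicate 2 and sevoflurane replicate 2 were level. The log2 difference in the ratio was 0.09 for FA2H and 0.27 for UGT8.

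The other 8 enzymes had higher ratios to the markers in both sevoflurane libraries. The log2 difference in the ratio was 0.58 for ELOVL1, 0.67 for GAL3ST1, 0.89 for ASPA and 0.93 for CERS2. It was larger for SPTLC2 (1.34), SGMS1 (1.57), GALC (1.84) and ELOVL7 (2.07), the genes whose own level differed least between the groups. The same marker mean (log2 difference -1.96) is taken from every gene, so the order of these values repeats that of the fold changes. These ratios do not depend on the scaling of a whole library.

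**Figure D3:**
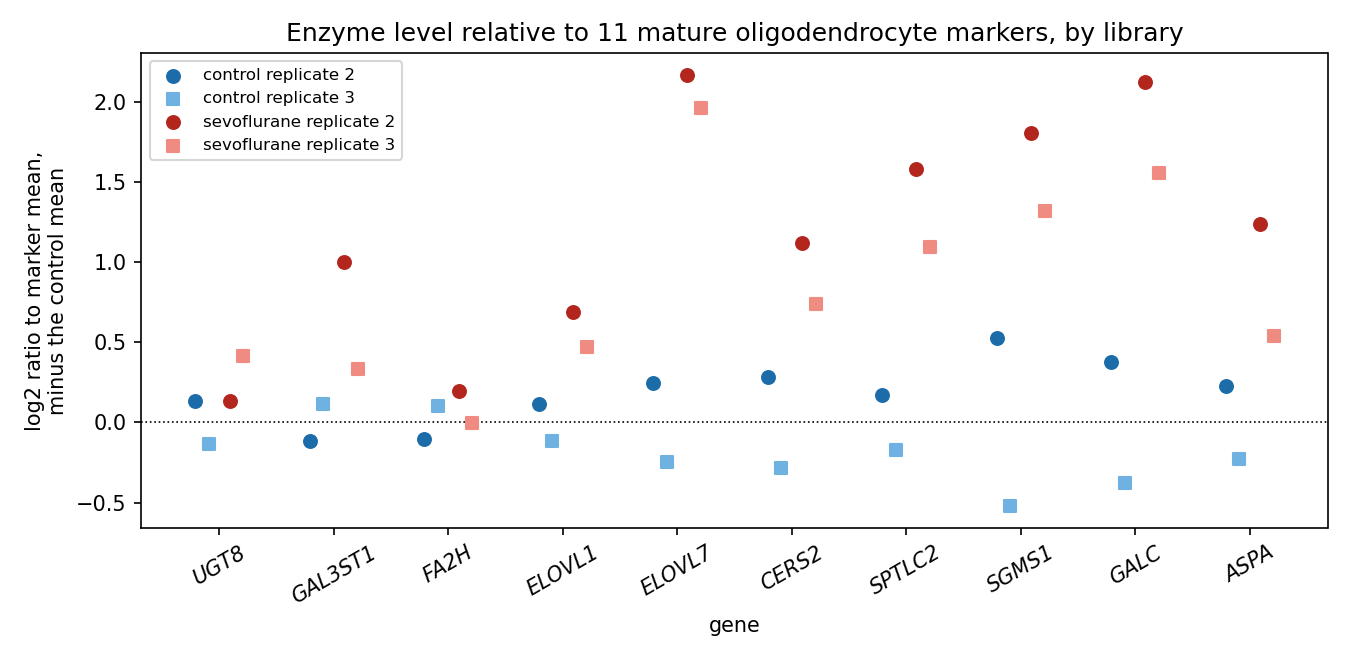
Log2 ratio of each enzyme's CPM to the geometric mean CPM of 11 mature oligodendrocyte markers, in each library, minus the mean of the 2 control libraries. FA2H and UGT8 stay within 0.5 of 0 in every library, whereas both sevoflurane libraries lie above 1 for SPTLC2, SGMS1, GALC and ELOVL7.

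Differences within a group were also seen. On the log2 scale, the marker mean was higher in control replicate 3 than in control replicate 2 by 0.57, and FA2H (0.78) and GAL3ST1 (0.80) differed in the same direction by more. UGT8 (0.31) and ELOVL1 (0.34) differed by less, CERS2 was level (0.00), and SGMS1 (-0.48) and GALC (-0.20) went the other way. In the sevoflurane pair the marker mean was higher in replicate 3 than in replicate 2 by 0.52 and UGT8 by 0.80, while FA2H had 0.32, ELOVL1 0.30 and CERS2 0.14. In that pair GAL3ST1 (-0.15) and ASPA (-0.18) had the opposite sign to UGT8. These pairs are single libraries, with no error of their own.

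The genes whose profile over the 4 libraries was most like that of UGT8 were taken from tested genes with a mean of at least 5 CPM, by the root mean square difference of log2 deviations from each gene's own mean. In order they were MYRF, a transcription factor of myelinating oligodendrocytes (0.03), ERMN, an oligodendrocyte cytoskeletal protein (0.06), AQP1, a water channel (0.08), BCAS1, found in newly myelinating oligodendrocytes (0.08), MOG, an outer myelin glycoprotein (0.09), EFHD1 (0.11), and PLXNB3, a semaphorin receptor (0.12). Of the other enzymes, ELOVL1 was at rank 30 (0.23) and FA2H at rank 36 (0.25), CERS2 at rank 113 (0.41) and GAL3ST1 at rank 132 (0.43). SGMS1 and GALC were at ranks 1642 and 4389. The likeness rests on 4 libraries and is a description.

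The rest of sphingolipid metabolism was looked at through 8 lists with 92 genes, of which 91 were found in the table and 85 were tested. The 10 enzymes were kept out of these lists, so CERS2 and ELOVL1, both called, do not count under ceramide synthesis and elongation. By edgeR 0 of the 85 were called, against 0.599% of all tested genes, and 0 were called by DESeq2 or by limma-voom. At an unadjusted p under 0.05 there were 7 lower and 3 higher by edgeR, or 11.8%, against 9.92% of all tested genes. The median log2 fold change was -0.03. The groups did not overlap for 34 of the 85 (20 lower and 14 higher after sevoflurane), or 40.0%, against 41.2% of all tested genes.

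Of 15 tested genes of ceramide synthesis other than CERS2 and SPTLC2, 0 were called, with a median log2 fold change of 0.09. Of these 15, 2 had an unadjusted p under 0.05 by edgeR. CERS6, a synthase of ceramides with shorter chains, had 171 ± 11.4 CPM in controls and 211 ± 6.80 CPM after sevoflurane (SD, n = 2 per group; log2 fold change 0.30, SE 0.12), and CERS1, a neuronal synthase, had 124 ± 5.94 and 101 ± 3.18 CPM (-0.30, SE 0.13). Neither passed, with adjusted p = 0.452 and 0.483. The ratio of CERS2 to CERS6 reads was 0.298 and 0.328 in controls and 0.115 and 0.133 after sevoflurane. ORMDL1, a regulator of serine palmitoyltransferase, had 37.3 ± 1.19 and 44.6 ± 4.06 CPM (0.26, SE 0.16).

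Of 10 tested genes of fatty acid elongation other than ELOVL1 and ELOVL7, 0 were called (median -0.13). Of these 10, 2 had an unadjusted p under 0.05 by edgeR, both lower. ELOVL5, an elongase of polyunsaturated chains, had 106 ± 3.54 CPM in controls and 72.7 ± 1.21 CPM after sevoflurane (-0.55, SE 0.13, adjusted p = 0.149). The later enzymes of the elongation cycle, which all elongases share, were nearer to 0, with -0.11 (SE 0.12) for HACD3 and -0.08 (SE 0.13) for HSD17B12.

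The branches that compete for ceramide were measured by 13 tested genes of sphingomyelin and ganglioside synthesis, with 0 called (median -0.05; 1 lower and 1 higher at an unadjusted p under 0.05). SAMD8, a sphingomyelin synthase relative that makes ceramide phosphoethanolamine, had 0.26 (SE 0.12), and B4GALT6, a lactosylceramide synthase, had 0.31 (SE 0.13, adjusted p = 0.475). COL4A3BP, the ceramide transfer protein, had 0.25 (SE 0.14).

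For galactose and sulfate donors, 0 of 10 tested genes were called (median -0.15; 1 lower at an unadjusted p under 0.05). UGP2, which makes UDP-glucose, had -0.12 (SE 0.13), PAPSS1, which makes the sulfate donor, -0.17 (SE 0.15), and SLC35B2, which carries that donor into the Golgi, -0.43 (SE 0.20).

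In lysosomal breakdown, 0 of 12 tested genes were called (median -0.09; 2 lower at an unadjusted p under 0.05). PSAP, the precursor of the saposins that assist GALC and other hydrolases, had 613 ± 44.0 CPM in controls and 617 ± 38.8 CPM after sevoflurane (0.01, SE 0.12). SCARB2, a lysosomal membrane protein, had -0.28 (SE 0.12, adjusted p = 0.479), and ASAH1, acid ceramidase, 0.28 (SE 0.19).

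Around ASPA, 0 of 8 tested genes of acetyl-aspartate metabolism were called and 0 had an unadjusted p under 0.05 (median 0.10). NAT8L, the neuronal enzyme that makes acetyl-aspartate, had 89.3 ± 22.1 CPM in controls and 72.2 ± 2.36 CPM after sevoflurane (-0.30, SE 0.18). ACLY, which makes cytosolic acetyl-CoA, had 0.00 (SE 0.13), and RIMKLA, a synthase of acetyl-aspartyl-glutamate, 0.13 (SE 0.13).

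Among ceramidases and sphingosine phosphate enzymes, 0 of 10 tested genes were called and 0 had an unadjusted p under 0.05 (median 0.05). SMPD3, a neutral sphingomyelinase, had 0.11 (SE 0.16), SMPD4, another, -0.03 (SE 0.15), and SGPL1, the lyase that ends sphingoid breakdown, 0.05 (SE 0.15). In peroxisomal breakdown of very long chains, 0 of 7 tested genes were called (median 0.05; 1 higher at an unadjusted p under 0.05). ABCD3 had 0.05 (SE 0.16) and HSD17B4 -0.12 (SE 0.14), a carrier and an enzyme of peroxisomal oxidation.

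**Figure D4:**
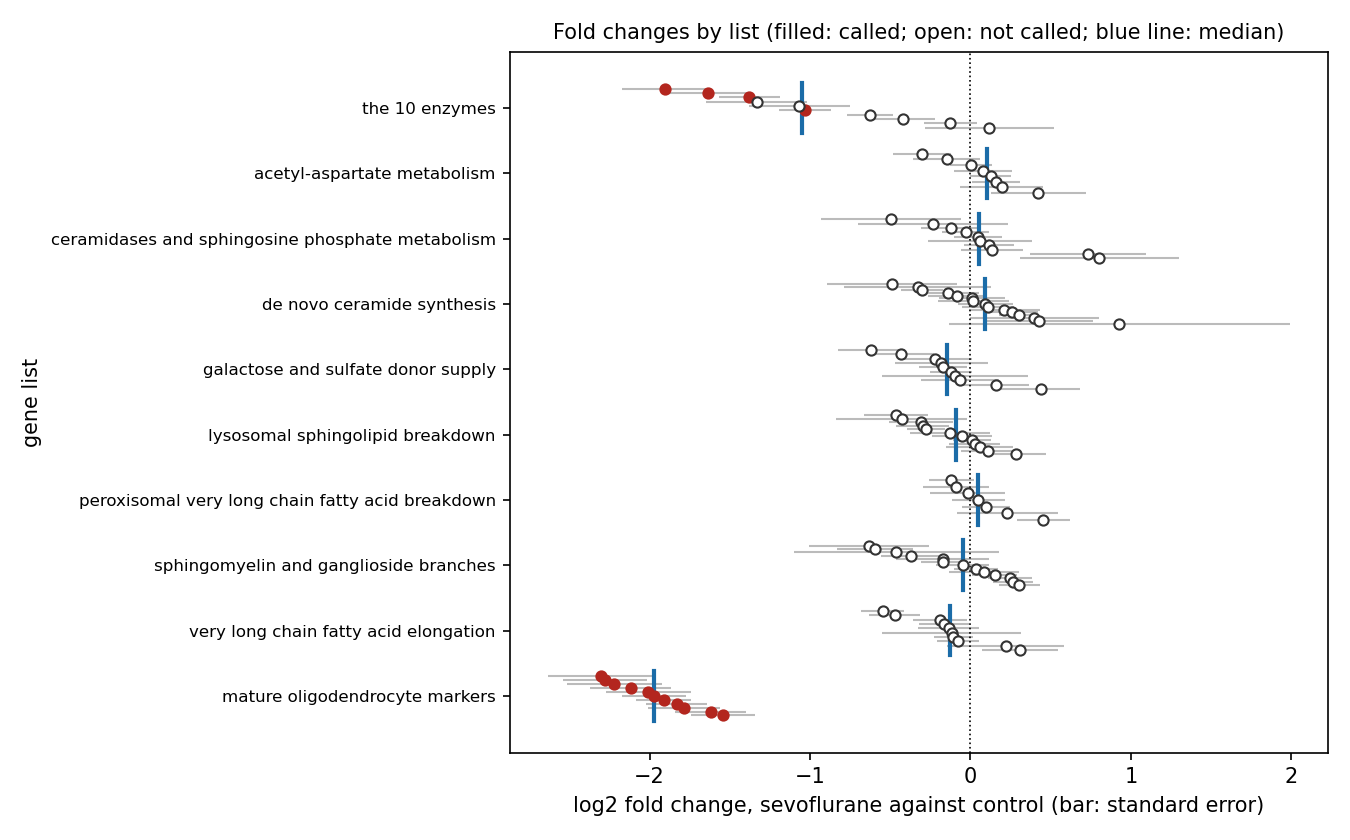
Log2 fold change of each gene, sevoflurane against control, with its SE as a bar, by list. Filled points were called by edgeR, open points were not, and the blue line is the list's median. The 10 enzymes spread from -1.90 to 0.12, the 8 other lists of the pathway have medians between -0.15 and 0.10, and the 11 mature oligodendrocyte markers lie between -2.31 and -1.54.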

How the data were processed

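The authors deposited 1 table of raw read counts, with genes in rows and the 4 libraries in columns. HISAT2 aligned the reads, per the submitters' processing notes; how they were counted, on which genome build and annotation, and whether by strand is not stated in the sources used here. Reads shared with near-identical or overlapping genes are thus uncertain. CERT1 was found under its older symbol COL4A3BP, and FOLH1 was not matched. A few genes of the lists are counted but not reported by name.

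In R 4.3.3, edgeR 4.0.16 kept genes that reached 10 counts (rescaled to the median library) in 2 libraries and 15 over all libraries, scaled libraries by TMM (factors 0.969 to 1.02) and fitted group alone across all genes. Genes were called at a two-sided quasi-likelihood adjusted p under 0.05. The steps were tested on simulated counts. Alternatives were DESeq2 1.42.0, limma-voom (limma 3.58.1), other scalings and filters, the replicate number as a block, and leaving out each library.

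The members and lists were chosen with earlier results of these data known. Outside the 10 genes, the rule names called list genes and the 3 most abundant of each pathway list. GFAP, AQP4, S100B, CX3CR1, C1QA, C1QB, NEFL, SLC17A7, SLC6A13, OLIG2, SOX10, PDGFRA, PCDH15, TMEM144, ST8SIA5 and ACER2 were named after their values were seen. No library pair agreed within counting noise (chi-square per degree of freedom 6.93 to 21.0).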

Additional observations from a re-analysis of the deposited data

How the results depend on the processing

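Over all genes, the 95 lower and 11 higher calls became 57 and 3 with no filter, 219 and 60 by DESeq2 (whose own filter left 4117 genes without an adjusted p, ELOVL7 among them), and 341 and 170 with the replicate block; limma-voom gave 7 higher. Replicate numbers are shared by the groups, and the labels do not say what they stand for. Deviations of same-numbered libraries were hardly correlated (r = 0.01 over 17693 genes, 2 pairs). With 2 pairs this cannot decide whether same-numbered libraries share a batch, which was not tested. Of the 10 enzymes, 4 were called lower, against 2 with no filter and 6 with the replicate block, which added GAL3ST1 (-1.29) and SPTLC2 (-0.62). Leaving out 1 library gave 118 to 232 lower and 27 to 81 higher calls over all genes, 3 to 6 of the 10 enzymes called lower, and a median of the 10 from -1.08 to -0.95. The median ratio of the enzymes to the oligodendrocyte markers then differed by 0.64 to 1.18 (log2). Relative to the markers, FA2H had -0.009 without control replicate 2 and -0.006 without sevoflurane replicate 2. With another library out it had up to 0.197. The log2 fold change of ELOVL7 itself, not set against the markers, was -0.042 without sevoflurane replicate 3 (up to 0.261). The cause of these changes of sign was not tested. One pathway gene was called without control replicate 2 (ST8SIA5, sphingomyelin and ganglioside branches) and 1 without sevoflurane replicate 2 (ACER2, ceramidases), so these lists ranged from 0 to 1 and the other 6 stayed at 0. With 1 library left in a group, it is assumed to vary like the other group. Scaling by DESeq2's size factors or library size alone, and a stricter filter (which left 9 of the 10 tested), kept the same 4 enzymes called.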
